A study of Mus musculus with 20 samples.

Results

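The genes of the endoplasmic reticulum (ER) that fold, modify and clear secreted proteins, together with the sensors that control them, were read in mouse livers with and without the Scd1 gene on either of 2 diets. The module held 33 genes, chosen by name from knowledge of the unfolded protein response and with earlier results of these data known. All 33 were matched by symbol in the array's probe table, out of 18193 genes named by a single-gene probe set, and each is represented by the probe set with the highest mean log2 intensity. Scd1 encodes stearoyl-CoA desaturase, the liver enzyme that makes monounsaturated from saturated fatty acids. Affymetrix Mouse430v2.0 arrays were hybridised with total RNA of 20 individual livers, 5 in each of 4 groups. The groups were Scd1-/- mice on the very low fat, high carbohydrate diet (VLF; TD03045 from Harlan Teklad), Scd1+/+ mice on the same diet, Scd1-/- mice on chow and Scd1+/+ mice on chow; these genotypes are called KO and WT below. The sources used here do not give age, sex, strain background, time on the diet or the part of the gene that the KO allele lacks. In the deposited values the Scd1 probe set lay between 25.9 and 57.4 on the 10 KO arrays, near the array medians of 32.3 to 36.6, and between 6522 and 20108 on the 10 WT arrays, as the labels say. The p-values given here measure the spread between individual livers.

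The unfolded protein response is a set of pathways by which a cell adjusts its ER to the load of protein that has to be folded. The chaperone BiP, the product of Hspa5, binds unfolded chains and also the sensors IRE1, PERK and ATF6, and the released or modified sensors act through the factors XBP1, ATF4 and cleaved ATF6 to raise chaperones, oxidases and the machinery that returns misfolded chains to the cytosol for degradation. Hepatocytes secrete most plasma proteins and are rich in rough ER, and the sensors are known to respond to membrane lipid saturation as well as to unfolded protein.

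The ER stress element is the promoter sequence through which ATF6 and XBP1, with the CCAAT-binding factor NF-Y, are known to act. Its letters (ERSE), which are CCAAT, then any 9 bases, then CCACG, were searched on both strands from 250 bases before to 50 bases after each annotated start site in RefSeq promoters of GRCm38.p6. Of 32851 promoters, 39 held it, which is 0.119%. Promoters were available for 27 of the 33 members, and 10 of these 27 genes held the element. The members were chosen as known genes of the unfolded protein response, so their share with the element is not an independent test. The windows below are those of the 10 genes that hold it. Each runs 5′ to 3′ along its gene, with the element in capitals, which reads in reverse complement where it lies on the opposite strand.
Hspa5, chr2:34772015-34772053, plus strand: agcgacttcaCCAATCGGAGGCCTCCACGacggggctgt
Calr, chr8:84847065-84847103, minus strand: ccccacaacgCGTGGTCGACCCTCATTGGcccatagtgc
Derl3, chr10:75893232-75893270, plus strand: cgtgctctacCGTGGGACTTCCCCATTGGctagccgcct
Hsp90b1, chr10:86705628-86705666, minus strand: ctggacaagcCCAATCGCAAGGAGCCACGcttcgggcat
Hsp90b1, chr10:86705523-86705561, minus strand: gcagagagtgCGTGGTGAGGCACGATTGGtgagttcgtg
Canx, chr11:50325790-50325828, minus strand: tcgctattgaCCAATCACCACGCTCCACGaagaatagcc
Pdia6, chr12:17266481-17266519, plus strand: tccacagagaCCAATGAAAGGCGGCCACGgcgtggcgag
Ero1b, chr13:12565672-12565710, plus strand: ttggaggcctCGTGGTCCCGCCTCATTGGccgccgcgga
Dnajc3, chr14:118937817-118937855, plus strand: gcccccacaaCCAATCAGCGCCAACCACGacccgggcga
Creld2, chr15:88819510-88819548, plus strand: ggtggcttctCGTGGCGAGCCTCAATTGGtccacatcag
Syvn1, chr19:6046522-6046560, plus strand: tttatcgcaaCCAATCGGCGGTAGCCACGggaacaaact
As an exact match the element occurred once in 9 of these genes and at 2 places in Hsp90b1. Copies with a differing letter were not searched for. All exact copies lay between 26 and 212 bases before the start site. Of the 10 genes, 8 were called higher in KO than in WT livers on the VLF diet and none lower, where 21.6% and 25.8% of all measurable genes were called, and their median log2 change there was 1.08. Among the 17 members with a promoter but no ERSE, 12 were called higher and 2 lower, with a median of 0.57. Only 10 of the 27 other genes with an ERSE were measured, and of these 1 was called higher and 2 lower, near those shares of all genes, with a median of -0.11. A match of letters is a description of the promoter and not evidence of binding in these livers.

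**Figure D1:**
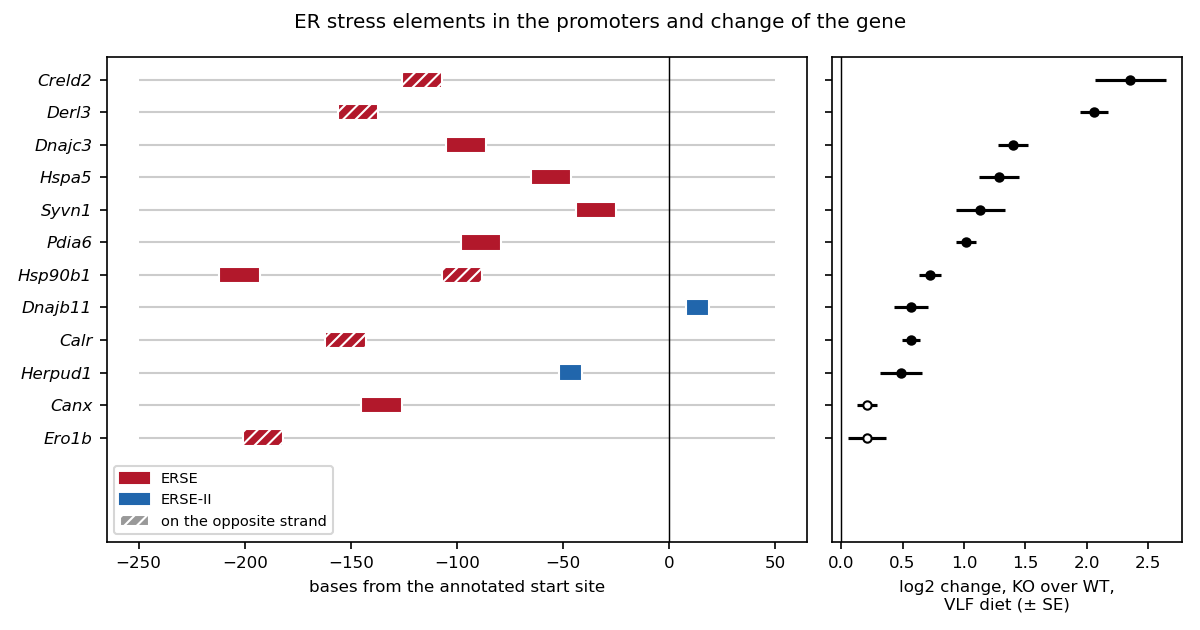
Left, position of each ERSE and ERSE-II copy in bases from the annotated start site (0) in the 12 member promoters that hold one; right, log2 change of the same gene in KO over WT livers on the VLF diet (point ± SE, 5 livers per group, filled where called). Creld2 and Derl3, at the top, changed by 2.35 and 2.06, and Canx and Ero1b, at the bottom, were not called although they hold the element.

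A related element (ERSE-II), which is ATTGG, any 1 base and CCACG, was searched in the same way and occurred in 12 promoters (0.0365%), of which 2 were of members. One was Herpud1, the gene in whose promoter the element is best known, and the other was Dnajb11, where it lay 8 to 18 bases after the annotated start.
Herpud1, chr8:94386368-94386396, plus strand: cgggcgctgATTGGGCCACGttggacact
Dnajb11, chr16:22857843-22857871, plus strand: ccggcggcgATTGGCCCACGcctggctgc
The letters TGACGTGG, the core bound by XBP1 in the unfolded protein response element, were found in 222 promoters (0.676%) and in 0 of the 27 member genes with a promoter. TGATGCAA, the core through which ATF4 acts with C/EBP partners, was found in 294 promoters (0.895%) and in 1 member, Herpud1. No member held both ERSE and ERSE-II, and none of the copies found in members overlapped another. The promoters of Hspa5, the textbook target of the response, and of Derl3, the member with the smallest adjusted p on the VLF diet, are given in full for the 250 bases before the start site, again with the ERSE in capitals.
Hspa5, chr2:34771840-34772089, plus strand: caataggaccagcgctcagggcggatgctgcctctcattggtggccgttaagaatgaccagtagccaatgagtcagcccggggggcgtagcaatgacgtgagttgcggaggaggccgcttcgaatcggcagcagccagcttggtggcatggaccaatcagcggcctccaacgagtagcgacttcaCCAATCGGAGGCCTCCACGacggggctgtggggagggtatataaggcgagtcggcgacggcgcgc
Derl3, chr10:75893148-75893397, plus strand: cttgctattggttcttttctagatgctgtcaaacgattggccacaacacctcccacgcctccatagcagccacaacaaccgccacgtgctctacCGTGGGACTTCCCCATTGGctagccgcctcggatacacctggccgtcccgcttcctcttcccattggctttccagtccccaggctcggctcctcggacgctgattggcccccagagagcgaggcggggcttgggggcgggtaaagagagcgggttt

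Arrays of a group correlated with each other at 0.984 to 0.993 on average over all tested probe sets. KO liver 3 on chow stood apart: its mean correlation with the other KO livers on chow was 0.984, against 0.991 to 0.992 for those, and it lay nearest of them to the KO livers on the VLF diet, at 0.960. KO liver 2 on the VLF diet had the next lowest correlation with its own group, at 0.986. Calls that turned on either array are given with and without it. Albumin, the defining hepatocyte product, lay at or near the top of the normalized scale on every array, where quantile normalization largely sets its value, so it marks the tissue as liver and does not measure its hepatocyte content. The summed level of 10 macrophage markers was 15410 to 21690 in KO livers on the VLF diet, against 4544 to 5526 in WT livers on that diet, and all 10 were called higher. On chow it was 5609 to 7929 in KO and 5612 to 6066 in WT livers, with 0 of the 10 called by limma (3 had an unadjusted p under 0.05). Summed over 8 stellate cell markers the level was 4787 to 6156 in KO and 2426 to 3019 in WT livers on the VLF diet, with 6 called higher and 1 lower. Plasma cells are also rich in many of these ER messages. The sum of 8 of their markers was 347 to 684 in KO and 401 to 478 in WT livers, 0 were called by limma (1 had an unadjusted p under 0.05), and Pou2af1 lay at the floor on 19 of 20 arrays. Of 7 neutrophil markers 3 were called higher and 1 lower, of 6 cholangiocyte markers 3 higher, of 6 pancreatic acinar markers 1 lower, and of 9 hepatocyte markers 4 lower, beside 21.6% of all measurable genes called higher and 25.8% lower. The part of these cell types in the ER results was not tested, and in whole liver fewer cells of a type and less RNA per cell cannot be told apart. The 3′ to 5′ ratio of the actin control, a sign of RNA integrity, had a geometric mean of 1.82 in KO and 2.18 in WT livers on the VLF diet, a log2 difference of -0.26 (exact two-sided permutation test, p = 0.0159, n = 5 each), and that of Gapdh was 1.29 in KO and 1.31 in WT livers (difference -0.026, exact p = 0.508). On chow the actin ratio was 2.25 in KO and 2.69 in WT livers (difference -0.26, exact p = 0.00794), and the Gapdh ratio 1.37 in KO and 1.55 in WT livers (difference -0.18, exact p = 0.00794). The part of RNA integrity in the results was not tested.

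The first comparison asked how the loss of Scd1 went with the level of these genes on the VLF diet. Most of the module was higher in KO livers: 24 of the 33 genes were called higher than in WT livers, 3 lower (Derl2, Ppp1r15b and Ern1) and 6 were not called. A call is an adjusted p under 0.05 from limma, with Benjamini-Hochberg adjustment over all probe sets. Calls were common in this comparison, with 21.6% of the 16188 measurable genes called higher and 25.8% lower; among the 9422 genes averaging at least 64, as all 33 members do, these shares were 28.2% and 33.6%. The median log2 change was 0.71 over the 33 members and -0.061 over all measurable genes. In 19 members every KO liver lay above every WT liver, and in 2 every KO liver lay below, where 16.4% and 17.4% of measurable genes did so. 12 members were called and at least 2-fold higher, among 775 such genes on the array. With the arrays centred on the hybridization controls in place of quantile normalization the median of all genes was 0.13 and all calls on the array split into 5092 higher and 957 lower, against 3491 and 4177 here. Under that centring 28 members were called higher and 2 lower. With median scaling alone the split was 4157 higher and 3109 lower.

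**Figure D2:**
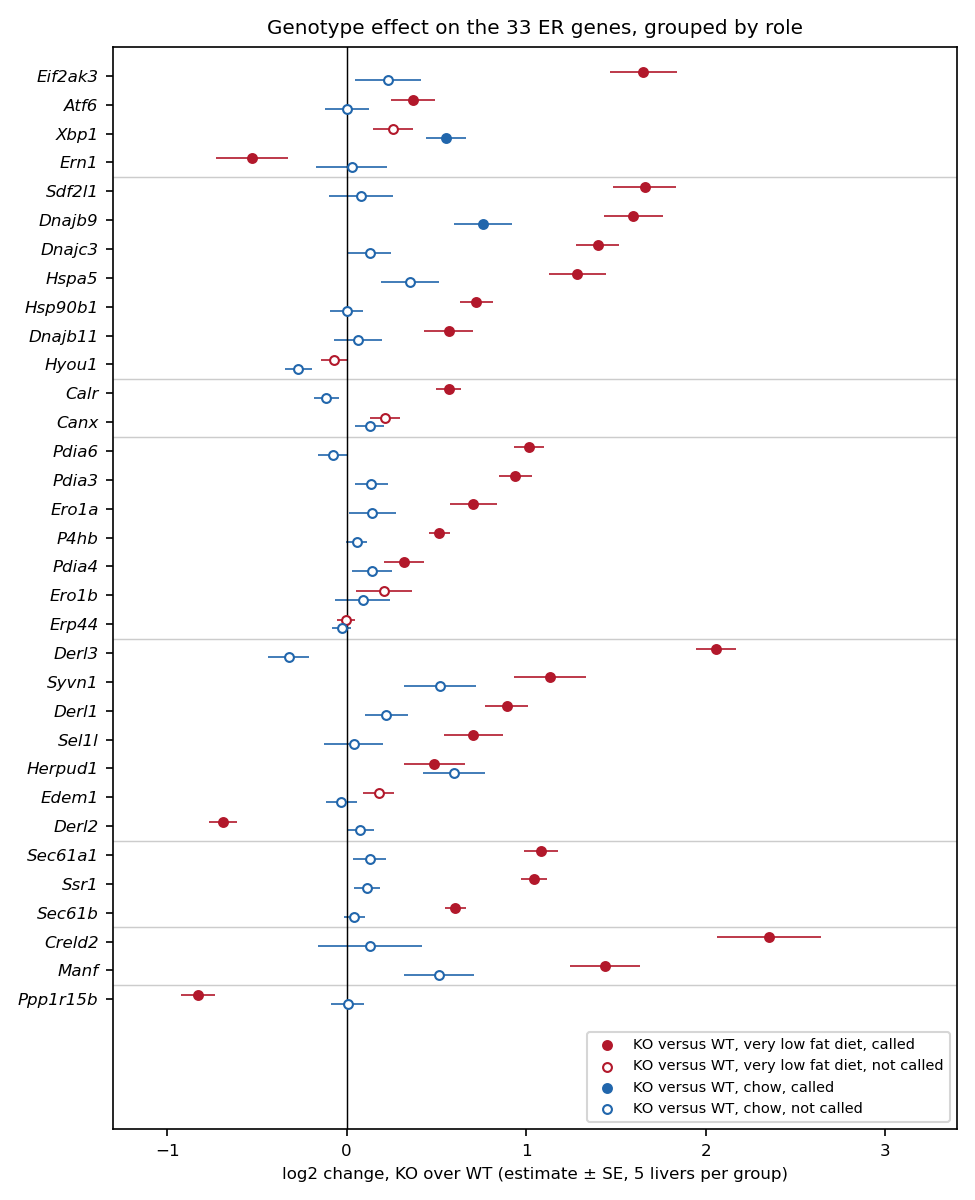
Log2 change of each of the 33 genes (estimate ± SE, 5 livers per group) in KO over WT livers on the VLF diet (red) and on chow (blue), grouped by role from the sensors at the top to the phosphatase subunit at the bottom; filled points were called. On the VLF diet 24 filled points lie to the right of 0 and 3 filled points to the left, and on chow only Xbp1 and Dnajb9 are filled.

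Among the 3 sensors and the factor Xbp1, 2 genes were called higher and 1 lower on the VLF diet. Eif2ak3 encodes PERK, the kinase that slows translation by phosphorylating an initiation factor. Eif2ak3 read 210.4, 127, 266, 291 and 274 in the KO livers on the VLF diet, against 73.7, 71.6, 57.7, 85.7 and 70.5 in the WT livers on that diet. On chow the readings were 83.5, 81.5, 126, 89.6 and 78.2 in KO livers, against 76.0, 77.7, 68.1, 83.1 and 81.1 in WT livers. The KO livers on the VLF diet all stood above the other 15 livers, KO liver 2 only just. The difference on that diet was 1.65 ± 0.18 on the log2 scale (estimate ± SE), or 3.15-fold, with an adjusted p of 9.55e-07 by limma. Atf6 encodes the sensor that is cut in the Golgi to release a transcription factor. Atf6 gave 310.1, 266, 395, 426 and 377 in the KO livers on the VLF diet, against 294, 277, 245, 267 and 271 in the WT livers on that diet. On chow it gave 253, 289, 332, 265 and 293 in KO livers, against 339, 330.4, 284, 242 and 244 in WT livers. On the VLF diet KO liver 2 lay inside the WT range and the other 4 KO livers above it, while the chow groups overlapped fully. The rise was 0.37 ± 0.12 (1.29-fold, adjusted p = 0.025), and it was no longer called without any one of KO livers 3, 4 or 5 or WT liver 3 (0.30 to 0.34, adjusted p = 0.0585 to 0.0753).

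Ern1 encodes IRE1, the kinase and endoribonuclease that splices Xbp1 mRNA. Ern1 read 256, 188, 386, 492 and 364 in the KO livers on the VLF diet, against 507, 535, 409, 394 and 476 in the WT livers on that diet. In the chow groups Ern1 read 575, 611, 415, 636 and 602 in KO livers, against 659, 621, 539, 479 and 479 in WT livers. The ranges of the VLF groups overlapped, and the lowest readings of all were those of KO livers 2 and 1. The fall of -0.53 ± 0.20 on the VLF diet was at the edge of the threshold (adjusted p = 0.0487). It was -0.34 without KO liver 2 on the VLF diet (adjusted p = 0.136), -0.15 with centring on hybridization controls (0.851), and it was not called in most of the other alternatives tried.

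Xbp1, whose mRNA IRE1 splices, was read as total message, since the probe table does not separate splice forms. Xbp1 gave 2693, 2572, 2850.0, 2914 and 2542 in the KO livers on the VLF diet, against 1937, 2730.0, 2184, 2496 and 2079 in the WT livers on that diet. On chow the readings were 2229.9, 2492, 2547, 3270.4 and 2857 in KO livers, against 1746, 1495, 1750.0, 1921 and 2199 in WT livers. On the VLF diet the groups overlapped, while on chow each KO liver was above each WT liver. The log2 difference was 0.26 ± 0.11 on the VLF diet (adjusted p = 0.0872), which was not called, and 0.56 ± 0.11 on chow (adjusted p = 0.0281), which was. The chow difference was 0.098 and not called (adjusted p = 0.507) when probe sets with an _s, _x or _a suffix, which can read several transcripts, were left out.

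Of the 7 chaperones and cochaperones, 6 were called higher in KO livers on the VLF diet, with a median log2 change of 1.29. Hspa5, the gene of BiP, averaged 10191 ± 1851 in KO and 4215 ± 1085 in WT livers on this diet (mean ± SD, n = 5 each), a difference of 1.29 ± 0.16 (adjusted p = 3.68e-06). KO liver 2, at 6995, lay well under the other 4 KO livers, which read 10284 to 11528, yet above the highest WT liver at 6036. Dnajb9 encodes a BiP partner that also holds IRE1 in check. Dnajb9 read 1935, 1572, 2458, 2629.7 and 2757 in the KO livers on the VLF diet, against 824, 625, 703, 898 and 658 in the WT livers on that diet. On chow Dnajb9 read 794, 780.5, 1264, 1123 and 975 in KO livers, against 667, 476, 585, 603 and 554 in WT livers. The KO livers were above the WT livers on both diets, and the difference was 1.60 ± 0.16 on the VLF diet (adjusted p = 3.12e-07) and 0.76 ± 0.16 on chow (adjusted p = 0.0319). Dnajc3 encodes a cochaperone known to inhibit PERK. Dnajc3 gave 1562, 1342, 1638, 1657 and 1741 in the KO livers on the VLF diet, against 590.2, 682, 586, 613 and 538 in the WT livers on that diet. On chow it gave 718, 658, 990.4, 647 and 625 in KO livers, against 682, 800.4, 563, 569 and 691 in WT livers. The 5 KO livers on the VLF diet all exceeded the other 15, and KO liver 3 on chow was the highest of those. The rise was 1.40 ± 0.12, or 2.64-fold (adjusted p = 3.44e-08). A second probe set of Dnajc3 was nearly as bright, at a geometric mean of 802 against 817. It gave 0.20 and was not called, so the size of the rise depends on the probe set taken.

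Sdf2l1, an ER-resident partner of BiP complexes, had the largest rise among the chaperones. It averaged 514 ± 122 in KO and 164 ± 43.9 in WT livers on the VLF diet, without overlap, and rose by 1.66 ± 0.18 (adjusted p = 6.1e-07). Hsp90b1, the ER member of the HSP90 family, averaged 3946 ± 551 in KO and 2378 ± 188 in WT livers, a rise of 0.72 ± 0.091. Dnajb11, a BiP cochaperone that binds nascent chains, rose by 0.57 ± 0.14 (adjusted p = 0.0029), with the groups overlapping through KO liver 2. Hyou1, a large chaperone that exchanges the nucleotide on BiP, was the one chaperone not called. It averaged 665 ± 38.6 in KO and 699.7 ± 83.0 in WT livers on the VLF diet, a difference of -0.068 ± 0.073 (adjusted p = 0.607), and 617 ± 40.7 in KO and 744 ± 55.2 in WT livers on chow.

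The lectin chaperones calreticulin and calnexin hold glycoproteins through their sugars. Calr read 5091, 5381, 5643, 5833 and 5956 in the KO livers on the VLF diet, against 3394, 4288, 3995, 3430.0 and 3752 in the WT livers on that diet. On chow the readings were 4469, 4487, 4606, 4021 and 4288 in KO livers, against 4817, 5286, 4423, 4898 and 4262 in WT livers. On the VLF diet every KO liver was above every WT liver, and the chow livers lay mostly between, with WT liver 2 on chow inside the range of the KO livers on the VLF diet. Calr rose by 0.57 ± 0.070 in KO over WT livers on the VLF diet (adjusted p = 3.46e-06). Canx, the membrane-bound lectin, averaged 2009.5 ± 64.3 in KO and 1736 ± 99.4 in WT livers. Its KO livers all lay above the WT livers, but the difference of 0.21 ± 0.082 missed the threshold (adjusted p = 0.0548).

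Of the 7 disulfide isomerases and oxidases, 5 were called higher on the VLF diet. Pdia6 encodes an isomerase that also acts on the sensors. Pdia6 read 1544, 1458, 1689, 1578 and 2003 in the KO livers on the VLF diet, against 862, 927, 837, 684 and 774 in the WT livers on that diet. In the chow groups it read 1087, 1074, 1123, 981 and 953 in KO livers, against 1126, 1184, 1066, 1047 and 1074 in WT livers. The KO livers on the VLF diet were the highest of all and the WT livers on it the lowest. The rise in KO over WT livers was 1.02 ± 0.084, or 2.02-fold (adjusted p = 2.34e-08). Pdia3 works with the lectin chaperones on glycoproteins. Pdia3 gave 2003, 2059, 2371, 2218 and 2215 in the KO livers on the VLF diet, against 1017, 1362, 1141, 1148 and 1023 in the WT livers on that diet. In the chow groups Pdia3 gave 1401, 1277, 1875, 1375 and 1314 in KO livers, against 1311, 1346, 1244, 1300.0 and 1314 in WT livers. Only KO liver 3 among the chow livers came near the KO livers on the VLF diet. The rise was 0.94 ± 0.092 (1.92-fold, adjusted p = 2e-07).

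P4hb, the classical protein disulfide isomerase, averaged 8137 ± 465 in KO and 5693 ± 369.5 in WT livers on the VLF diet and rose by 0.52 ± 0.058 (adjusted p = 1.06e-06). Ero1a, the oxidase that recharges the isomerases, averaged 359 ± 87.5 in KO and 214 ± 10.3 in WT livers, with an SD several times wider in KO, and rose by 0.71 ± 0.13 (adjusted p = 0.000311). Pdia4, an isomerase of the BiP complex, had a smaller difference of 0.32 ± 0.11 (adjusted p = 0.0335) with overlapping groups. Its call was lost without any one of KO livers 4 or 5 or WT livers 1, 3, 4 or 5 (0.25 to 0.33, adjusted p = 0.05 to 0.102). Ero1b, the second oxidase, differed by 0.21 ± 0.15 without a call (adjusted p = 0.362). Erp44 retains the oxidases in the early secretory pathway and differed by -0.0043 (adjusted p = 1), a difference that became 0.35 and was called with centring on hybridization controls (adjusted p = 0.00152).

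In ER-associated degradation, misfolded chains are recognised, moved to the cytosol and ubiquitinated, and 5 of the 7 genes were called higher and 1 lower. The 3 derlins, related membrane proteins of the export step, went different ways. Derl3 read 457, 578, 449, 428 and 653 in the KO livers on the VLF diet, against 127, 137, 114, 105 and 127 in the WT livers on that diet. On chow Derl3 read 113, 112, 102, 110.3 and 122 in KO livers, against 143, 151, 126, 164 and 119 in WT livers. The lowest KO liver on the VLF diet was far above every other liver. Derl3 rose by 2.06 ± 0.11, or 4.16-fold (adjusted p = 1.28e-10). Derl2 read 885, 819.6, 774, 834 and 885 in the KO livers on the VLF diet, against 1499.6, 1303, 1237, 1521 and 1225 in the WT livers on that diet. In the chow groups Derl2 read 1269, 1092, 1158, 1064 and 1063 in KO livers, against 939.9, 1148, 991, 1117 and 1165 in WT livers. All KO livers on the VLF diet lay below all others, and the WT livers on that diet were mostly the highest. Derl2 fell by 0.69 ± 0.076 on the log2 scale in KO livers, which was 1.61-fold lower (adjusted p = 9.19e-07). Derl1 averaged 963 ± 163 in KO and 513 ± 21.2 in WT livers on the VLF diet and rose by 0.89 ± 0.12 (adjusted p = 8.14e-06).

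Syvn1, the ubiquitin ligase of this route, averaged 574 ± 186 in KO and 253 ± 51.9 in WT livers on the VLF diet and rose by 1.13 ± 0.20 (adjusted p = 0.000184). Its partner Sel1l averaged 1138 ± 378 in KO and 669 ± 69.0 in WT livers and rose by 0.71 ± 0.16 (adjusted p = 0.00213). Both had KO livers inside the WT range. Herpud1, an organiser of the ligase complex, read 2515 to 3957 in KO and 2036 to 2761 in WT livers, a rise of 0.49 ± 0.17 (adjusted p = 0.0332). That call was lost without any one of KO livers 1, 3 or 4 or WT livers 1, 2 or 4 (0.42 to 0.48, adjusted p = 0.0537 to 0.0899). Edem1, which takes trimmed glycoproteins out of the folding cycle, was not called at 0.18 ± 0.086 (adjusted p = 0.129), and became a called fall of -0.23 when all probe sets of a gene were averaged (adjusted p = 0.0144).

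The translocation channel brings nascent chains into the ER, and its 3 members were all called higher, without overlap. Sec61a1 encodes the channel itself. Sec61a1 read 2832, 2659, 2989.9, 3081 and 3030.2 in the KO livers on the VLF diet, against 1472, 1524, 1315, 1356 and 1229 in the WT livers on that diet. The chow readings were 1378, 1313, 1714, 1126 and 1431 in KO livers, against 1088, 1300.0, 1201, 1327 and 1420.1 in WT livers. The lowest KO liver on the VLF diet stood well above the highest reading of any other group, which was that of KO liver 3 on chow. The rise was 1.08 ± 0.093, or 2.12-fold (adjusted p = 3.84e-08). Sec61b is the small subunit. Sec61b gave 2151, 2043, 2099, 1964 and 2455 in the KO livers on the VLF diet, against 1490.1, 1436, 1389, 1457 and 1255 in the WT livers on that diet. On chow it gave 1422, 1392, 1427, 1264 and 1356 in KO livers, against 1278, 1330.3, 1287, 1369 and 1393 in WT livers. The other 3 groups shared 1 narrow range below the KO livers on the VLF diet. It rose by 0.61 ± 0.058 (adjusted p = 1.42e-07). Ssr1 is a subunit of the translocon-associated complex. Ssr1 read 1335, 1517, 1559, 1494 and 1603 in the KO livers on the VLF diet, against 701, 755, 724, 781 and 677 in the WT livers on that diet. In the chow groups Ssr1 read 639.6, 719.8, 733, 650.4 and 742 in KO livers, against 583, 634, 573, 747 and 693 in WT livers. Here too the KO livers on the VLF diet were separate from all the rest. The rise was 1.04 ± 0.073 (adjusted p = 2.39e-09).

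**Figure D3:**
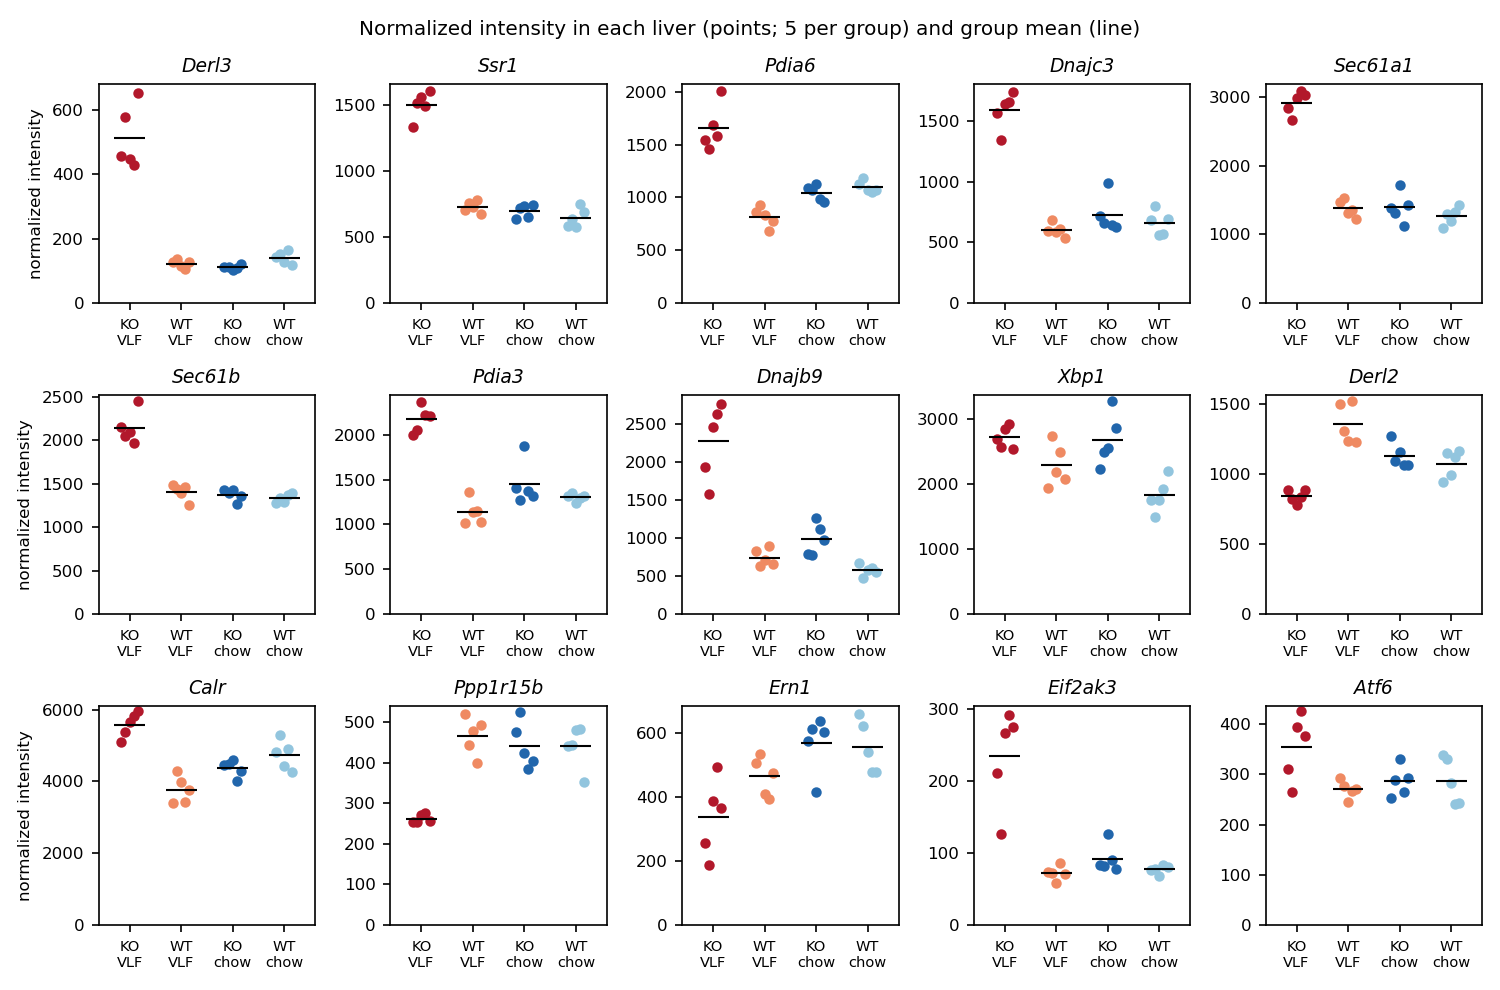
Normalized intensity (linear axes from 0) of 15 genes in each liver (points) with the group mean (line), in the order KO then WT on the VLF diet and KO then WT on chow. The 5 KO livers on the VLF diet sit alone at the top for Derl3, Ssr1, Dnajc3 and Sec61a1 and alone at the bottom for Derl2 and Ppp1r15b, while for Xbp1 the KO livers of both diets overlap.

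Creld2 and Manf encode small proteins that are retained in the ER and secreted under stress, and both were called higher. Creld2 averaged 2541 ± 903 in KO livers on the VLF diet, with a range of 1380.1 to 3805, and 513 ± 255 in WT livers, with a range of 269.6 to 943. Its rise of 2.35 ± 0.29, or 5.11-fold, was the largest among the 33 members (adjusted p = 3.39e-06). Manf averaged 3363 ± 825 in KO and 1233 ± 292 in WT livers, a rise of 1.44 ± 0.20 (adjusted p = 1.08e-05).

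Ppp1r15b encodes the constitutive regulatory subunit of the phosphatase that undoes the action of PERK. Ppp1r15b read 255, 253, 270.3, 277 and 257 in the KO livers on the VLF diet, against 520.1, 445, 479, 399 and 494 in the WT livers on that diet. Under chow feeding it read 475, 525, 423, 385 and 404 in KO livers, against 442, 445, 482, 483 and 352 in WT livers. The KO livers on the VLF diet formed a tight group below every other liver. The gene fell by 0.83 ± 0.094 on the log2 scale, or 1.77-fold lower (adjusted p = 1.19e-06), the largest called fall among the members.

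On chow few members were called between the genotypes. Only Xbp1 and Dnajb9 were called higher in KO than in WT livers and 0 members were called lower by limma, where 1.38% and 1.91% of measurable genes were; 8 members had an unadjusted p under 0.05. The median log2 change was 0.089 over the members and -0.018 over all measurable genes. Next to the threshold were Hyou1, at -0.27 ± 0.073 (adjusted p = 0.0549), and Herpud1, at 0.60 ± 0.17 (adjusted p = 0.0607). Herpud1 was called on chow when KO liver 2 on the VLF diet, which adds only to the estimate of spread there, was left out (adjusted p = 0.0475). The calls of Xbp1 and Dnajb9 were lost without KO liver 3 on chow, the array that stood apart: Xbp1 was then 0.57 (adjusted p = 0.0658) and Dnajb9 0.66 (adjusted p = 0.0896). They were likewise lost without KO liver 4 (0.48 and 0.70) or WT liver 1 on chow (0.54 and 0.81), and Dnajb9 also without WT liver 2 or 4 (0.69 and 0.78). With median scaling alone 6 members were called higher and all calls on the array split into 1258 higher and 234 lower, against 224 and 310.

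The effect of the diet was then set side by side in the 2 genotypes; the comparisons share groups with those above, so their values are not independent of them. In KO livers 23 members were higher on the VLF diet than on chow and 3 lower (Ern1, Derl2 and Ppp1r15b), where 19.2% and 19.8% of measurable genes were called. The median change was 0.60, against -0.030 over all measurable genes. Creld2 rose most, by 2.78 ± 0.29, followed by Derl3 (2.18 ± 0.11), Manf (1.55 ± 0.20) and Eif2ak3 (1.31 ± 0.18). Ern1 fell by 0.81 ± 0.20 (adjusted p = 0.00402). Edem1, not called between the genotypes, rose by 0.37 ± 0.086 with the diet in KO livers (adjusted p = 0.00288). Without KO liver 3 on chow 24 members were called higher and 3 lower, the added one being Atf6 at 0.35 (adjusted p = 0.049), against 0.30 with all arrays (adjusted p = 0.0892). Atf6 was also called without KO liver 2 on the VLF diet, at 0.39 (adjusted p = 0.013). With centring on hybridization controls the median of all genes was 0.30, all calls split into 6798 higher and 871 lower, against 3108 and 3213 here, and 27 members were called higher and 1 lower.

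In WT livers 1 member was called higher on the VLF diet than on chow and 2 lower, where 0.883% and 0.877% of measurable genes were. Derl2 rose by 0.34 ± 0.076 (adjusted p = 0.0383), and Calr and Pdia6 fell by 0.33 ± 0.070 and 0.43 ± 0.084 (adjusted p = 0.0277 and 0.0154). All 3 have several probe sets, and only the brightest was called in this comparison. With median scaling alone all calls on the array split into 118 higher and 57 lower, against 143 and 142. In KO livers all 3 moved the other way with the diet: Derl2 by -0.43 ± 0.076, Calr by 0.35 ± 0.070 and Pdia6 by 0.66 ± 0.084, each called. There the other probe sets of Derl2 and Calr were called the same way, and that of Pdia6 was not called. With centring on hybridization controls the change of Derl2 in KO livers was -0.026 and not called (adjusted p = 1). The WT call of Derl2 was lost without any one of WT livers 1, 2 or 4 on the VLF diet or 1 or 3 on chow (0.29 to 0.35, adjusted p = 0.0614 to 0.121), and that of Calr without WT livers 1 or 4 on the VLF diet or 1, 2 or 4 on chow (-0.32 to -0.29, adjusted p = 0.058 to 0.0944).

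**Figure D4:**
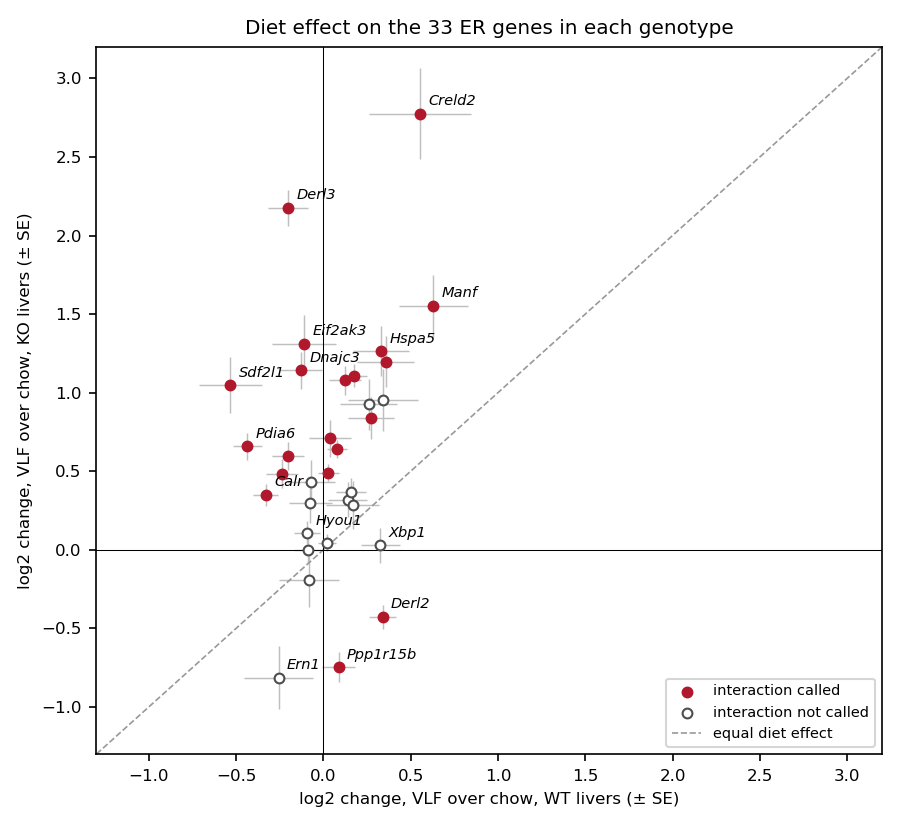
Log2 change between the VLF diet and chow in KO livers (vertical axis) against that in WT livers (horizontal axis) for the 33 genes (± SE, 5 livers per group); the dashed line marks an equal diet effect and filled points had a called interaction. 18 filled points lie above the line and 2, Derl2 and Ppp1r15b, below it.

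The interaction asks whether the diet effect differed between the genotypes. It was called for 20 members, 18 with a more positive diet effect in KO than in WT livers and 2 with a more negative one, where 13.6% and 13.6% of measurable genes were called each way. Centring on hybridization controls turned that split of all calls to 3965 higher and 618 lower, against 2206 and 2197, moved the median of all genes to 0.33, and gave 24 and 1 members. The largest were Derl3 at 2.38 ± 0.16 (adjusted p = 7.38e-09), Creld2 at 2.22 ± 0.41 and Sdf2l1 at 1.58 ± 0.25. The smallest adjusted p-values after that of Derl3 were those of Pdia6 at 1.09 ± 0.12 and Ssr1 at 0.93 ± 0.10 (adjusted p = 2.27e-06 and 2.56e-06). Of the 24 members higher in KO livers on the VLF diet, 18 had this interaction. The other 6 were Atf6, Dnajb11, Herpud1, Pdia4, Sel1l and Syvn1, for which a difference in the diet effect was not shown. Derl2 had an interaction of -0.77 ± 0.11, with diet changes of -0.43 in KO and 0.34 in WT livers, and it was -0.44 and not called with centring on hybridization controls (adjusted p = 0.0601). Ppp1r15b had one of -0.83 ± 0.13, with changes of -0.75 in KO and 0.087 in WT livers, and that of Ern1, at -0.56 ± 0.28, was not called (adjusted p = 0.227). Without KO liver 2 on the VLF diet Atf6, Dnajb11, Sel1l and Syvn1 were also called, at 0.47, 0.60, 0.81 and 0.81 (22 members higher), and without KO liver 3 on chow Dnajb11 was called at 0.61 (adjusted p = 0.0196). The interaction of Ero1a, 0.56 ± 0.19 (adjusted p = 0.0409), was not called without any one of KO livers 3, 4 or 5 or WT livers 1, 2, 3 or 5 on the VLF diet, or of KO livers 1, 2 or 3 or WT livers 1, 3 or 4 on chow (0.47 to 0.58, adjusted p = 0.0527 to 0.0805). Xbp1 had an interaction of -0.30 ± 0.16 (adjusted p = 0.256). Hyou1, Canx, Ero1b and Erp44 were called in none of the 5 comparisons.

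In 3 of the 4 groups a single liver was highest or lowest for many members. KO liver 2 on the VLF diet had the lowest reading of its group for 17 of the 24 higher members, and KO liver 5 the highest for 14. Among KO livers on chow, liver 3, the array that stood apart, was highest for 17 of the 33 members, with Pdia3 at 1875 against 1277 to 1401 in the others and Derl1 at 784 against 524 to 564. WT liver 2 on the VLF diet was highest of its group for 19 of the 33. No WT liver on chow stood out in this way, livers 2 and 5 being highest for 10 members each. The livers differed by this much within genotype and diet, and every value of a member comes from the same RNA, so members are not separate samples.

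Several probe sets read the same gene for 25 of the 33 members. Of the 19 of these that were called on the VLF diet, 15 had another probe set called in the same direction. Sec61a1 had 6 probe sets between 0.58 and 1.08 and Calr 3 between 0.57 and 0.65, all called higher. Atf6 was higher on all 3 probe sets, with 0.71 and 1.36 on the dimmer pair. For Ssr1, a dim probe set was called lower at -0.24, against 1.04 on the brightest. Dnajc3 gave 1.40, 0.20, 0.78, -0.17 and 0.15 from the brightest to the dimmest, and only 2 of these were called. The third probe set of Hspa5 stayed at 0.0098, against 1.29 and 1.53 on the others. In Pdia3, Pdia4, Ern1 and Eif2ak3 no other probe set was called; those of Eif2ak3 read close to the floor of 16. Among members not called on the brightest probe set, Edem1 had a second one called lower at -0.64, and Hyou1 and Canx each had a dim one called higher at 0.48. None of the 4 probe sets of Xbp1 was called on the VLF diet, with values between -0.12 and 0.26.

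**Figure D5:**
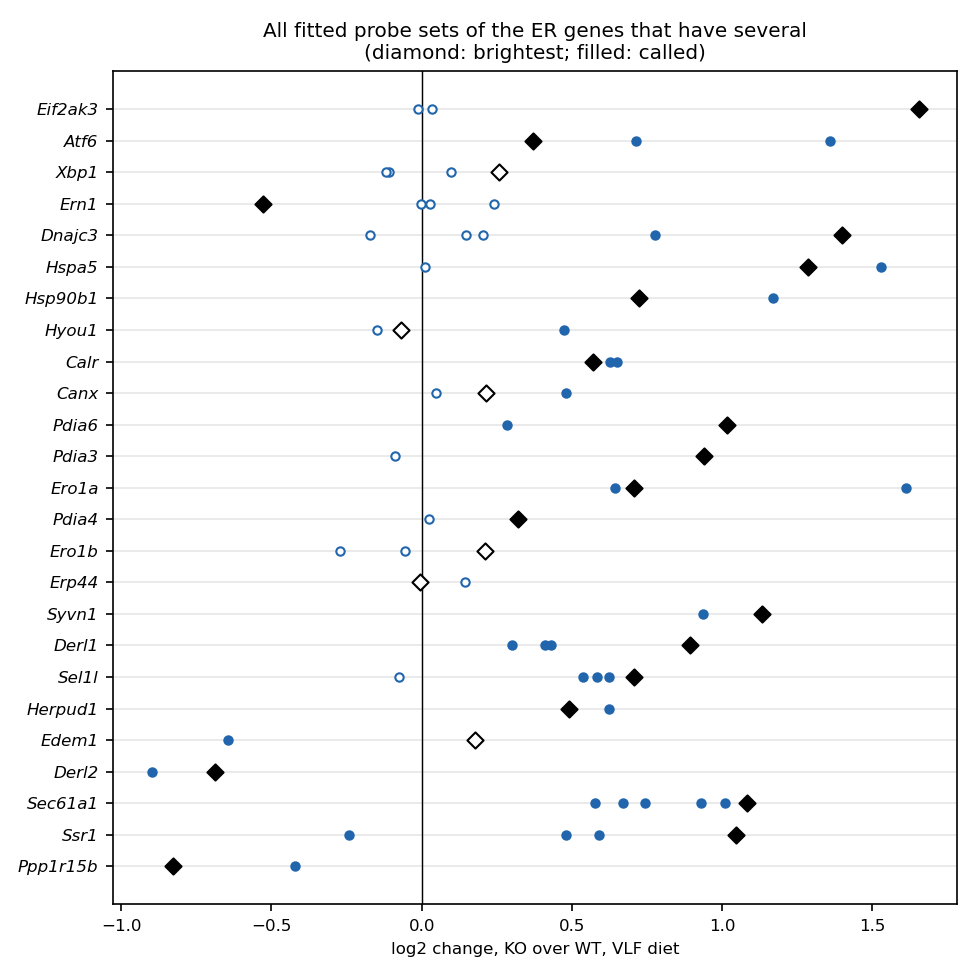
Log2 change in KO over WT livers on the VLF diet for every fitted probe set of the 25 genes that have several; diamonds are the brightest probe set, circles the others, and filled symbols were called. The probe sets of Sec61a1, Derl1 and Calr lie together on the right, while those of Dnajc3 and Ssr1 spread across 0.

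The rest of the secretory pathway was described from lists of other genes, whose counts stand beside shares over all genes on the VLF diet of 21.6% called higher and 25.8% lower, or 28.2% and 33.6% of genes averaging at least 64. In the translocation, signal peptidase and glycosylation list, 20 of 24 measured genes were called higher and 1 lower in KO over WT livers on the VLF diet (median 0.48, against -0.061 over all measurable genes). They included Srprb, a subunit of the receptor that docks ribosomes (1.25, adjusted p = 2.25e-07), the translocon-associated subunits Ssr4 (0.81) and Ssr3 (0.76) and the oligosaccharyltransferase subunit Dad1 (0.47). Ganab, the glucosidase that trims glycans, fell (-0.21). Of 24 other folding and redox factors 13 were higher and 6 lower (median 0.28). Fkbp11, a prolyl isomerase of secretory cells, rose by 2.50, the reductase Dnajc10 by 1.69, the prolyl isomerase Ppib by 0.76 and the translocon protein Serp1 by 0.73, while Cnpy2 (-0.81) and Fkbp2 (-0.31) fell. In 18 other degradation factors 11 were higher and 5 lower (median 0.37). The ubiquitin-conjugating enzyme Ube2j1 (1.07) and the retrotranslocation factor Selenos (1.07) rose, and the ligases Rnf5 (-1.03) and Marchf6 (-0.75) fell, as did Aup1 (-0.35) and the ligase Rnf139 (-0.20).

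Of 11 genes listed for the PERK and ATF4 arm, 9 were called higher and 0 lower by limma on the VLF diet (9 had an unadjusted p under 0.05). Their median was 1.93, and PERK activity itself was not measured. Atf3 (3.64, adjusted p = 1.08e-12), Nupr1 (3.32) and Ddit3 (3.21), factors induced by stress, rose by these log2 amounts. Ppp1r15a, the inducible counterpart of Ppp1r15b in the same phosphatase, rose by 1.93 where Ppp1r15b fell. On chow 1 of the 11 was called higher and 0 lower (2 had an unadjusted p under 0.05 in limma). Of all measurable genes 1.38% and 1.91% were called higher and lower there. The log2 changes of the 11 on chow ran from -0.37 to 2.12, with a median of 0.0031. For 2 of them every KO liver lay above every WT liver on chow. The share of all measurable genes that did so on chow is not given here, so that count is not read further. Of 12 genes of ER calcium handling 7 were higher and 4 lower in KO over WT livers on the VLF diet (median 0.54). Nucb2, a calcium-binding protein, was at 3.95, the calcium pump Atp2a2 at 1.08 and the calcium-binding proteins Rcn1 and Calu at 1.05 and 0.85. Stc2 and Itpr2 fell (-0.32 and -0.52).

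The lists of traffic and of sensor partners held calls both ways. In vesicle traffic between ER and Golgi 7 of 19 genes were higher and 6 lower (median 0.12), near the 28.2% and 33.6% among all genes averaging at least 64. Kdelr3, a receptor that returns ER proteins, rose by 1.43, and Arf4 (0.71) and the fusion protein Sec22b (0.57) rose as well, while the coat proteins Sar1b (-0.55), Sec24a (-0.47) and Copz1 (-0.33) fell. Of 15 sensor partners 6 were higher and 3 lower (median 0.029). Rtcb, the ligase that joins the ends of Xbp1 mRNA after IRE1 has cut it, rose by 0.49, Wfs1, an ER membrane protein that restrains ATF6, by 1.31 and Mbtps2, a protease that releases ATF6, by 0.95. Nfyb, a subunit of the factor that binds the CCAAT end of the ERSE, fell by 1.05 (adjusted p = 4.92e-07), and Tmbim6 (-0.19) and Mbtps1 (-0.14) fell by less.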

How the data were processed

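RNA of 20 individual mouse livers, 5 per genotype and diet, was hybridised to Affymetrix Mouse430v2.0 arrays. The deposited values are intensities per probe set on a linear scale; per the submitters' processing notes the tools were MAS5 and RMA, without role or version, so the sources used here do not give how the authors corrected and scaled these intensities. From there, each array was scaled to a common median, floored at 16, taken to log2 and quantile-normalized, which removes any shift common to most genes; levels are printed on the linear scale after normalization. Of 45101 probe sets 64 controls were left out, and 9114 at the floor on all arrays counted as unchanged. In GEO's platform annotation, used for gene names, 34945 of the tested probe sets named 1 gene, 932 several and 9160 none; a gene was read from its brightest single-gene probe set, and 16188 of 18193 genes lay above the floor on some array.

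Group means were fitted with limma 3.58.1 in R 4.3.3 over all 4 groups (16 residual and 1.94 prior degrees of freedom), with Benjamini-Hochberg adjustment over 45037 probe sets. The same fit was also run on simulated data with known changes, drawn with independent noise for each probe set and array. Such data hold no array that stands apart, so the run does not show how the fit behaves on these livers. Fold changes are 2 to the power of the log2 change. Single values were compared by exact permutation tests (scipy 1.17.1, Python 3.11.15, numpy 2.4.6), and figures were drawn with matplotlib 3.10.9. The number of arrays limits the precision, and no depth applies. No 2 arrays were copies: their mean absolute log2 difference was at least 0.106. The labels do not say whether replicate numbers pair the livers. Deviations of same-numbered arrays correlated at -0.25 to 0.27. Differently numbered arrays were not compared in this way, so a pairing is not excluded.

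The members and all gene lists were chosen with earlier results of these data known. Values of each liver are given for the 8 members with the smallest adjusted p between the genotypes on the VLF diet, the 4 with the smallest for the interaction, up to 4 called on chow or with the diet in WT, the largest called fall, and the sensors with Xbp1. Of each other list up to 4 genes with the smallest adjusted p are named, plus up to 2 called against its majority. Alternatives covered normalization, floor, filter, probe set choice, intensity trend, replicate block, groups fitted and leaving out each array.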

Additional observations from a re-analysis of the deposited data

Results flagged for a closer look

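Of 132 sets of 5 values (33 members in 4 groups), 10 had 1 liver far from the other 4, by a criterion that chance meets in about 1 of 20 such sets. KO liver 3 on chow, whose array stood apart over all genes, accounted for 6 of them. It was highest for Pdia3 at 1875 (1277 to 1401 in the other 4), Derl1 at 784 (524 to 564), Edem1 at 1154 (903 to 965), Sdf2l1 at 324 (216 to 234) and Eif2ak3 at 126 (78.2 to 89.6), and lowest for Ern1 at 415 (575 to 636). These are the directions in which the KO livers on the VLF diet differed from WT livers for Pdia3, Derl1, Sdf2l1, Eif2ak3 and Ern1. KO liver 2 on the VLF diet was lowest for Hspa5 at 6995 (10284 to 11528), Dnajb11 at 629 (827 to 916) and Erp44 at 713 (815 to 844). WT liver 5 on chow was lowest for Ppp1r15b at 352 (442 to 483).

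The diet effect differed between KO and WT livers, by the interaction term in limma, for 20 members. It was more positive in KO than in WT livers for Derl3 (2.38), Creld2 (2.22), Sdf2l1 (1.58), Eif2ak3 (1.42), Dnajc3 (1.27), Pdia6 (1.09), Sec61a1 (0.95), Hspa5 (0.93), Ssr1 (0.93), Manf (0.92), Dnajb9 (0.84), Pdia3 (0.80), Hsp90b1 (0.72), Calr (0.68), Derl1 (0.67), Ero1a (0.56), Sec61b (0.56) and P4hb (0.46). Derl2 (-0.77) and Ppp1r15b (-0.83) had interactions of the opposite sign.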

How the results depend on the processing

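Of 78 called member values in the 5 comparisons, 57 kept call and direction in every alternative. Lost in at least 1 alternative were, between KO and WT on the VLF diet, Atf6, Ern1, Herpud1 and Pdia4 (23 of 27 kept); between the diets in KO livers, Derl2, Dnajb11, Edem1, Ern1 and Pdia4 (21 of 26 kept); for the interaction, Derl1, Derl2, Dnajb9, Dnajc3, Ero1a, Manf and Ssr1 (13 of 20 kept); and all 2 on chow and all 3 between the diets in WT livers. Dnajc3 and Ssr1 lost the interaction only when all probe sets of a gene were averaged (adjusted p = 0.191 and 0.243), and Dnajb9 and Manf only with median scaling (0.101 and 0.118).

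Between KO and WT on the VLF diet, leaving out 1 array at a time gave 21 to 25 members higher and 2 to 3 lower. The same gave 0 to 3 higher and 0 to 1 lower on chow, 0 to 1 higher and 1 to 2 lower between the diets in WT, 21 to 24 higher and 3 lower between the diets in KO, and 17 to 22 higher and 2 lower for the interaction. The actin ratio then ranged from -0.30 to -0.23 on the VLF diet (exact p = 0.0159 to 0.0317) and from -0.29 to -0.21 on chow (exact p = 0.0159), and the Gapdh ratio from -0.049 to -0.00067 (exact p = 0.190 to 0.984) and from -0.21 to -0.15 (exact p = 0.0159). In KO livers the diet calls of Dnajb11 were lost without KO livers 3 or 5 on the VLF diet or 2 or 4 on chow (adjusted p = 0.0572 to 0.0654), and those of Pdia4 without KO livers 3, 4 or 5 on the VLF diet or 1, 2, 4 or 5 on chow (0.0543 to 0.120).

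On chow 6 members were higher with median scaling, 0 with hybridization-control centring (5 at an unadjusted p under 0.05 in limma), 1 with probe sets lacking an _s, _x or _a suffix and 0 with only the compared groups fitted (6 at an unadjusted p under 0.05); 1 was lower with log2(value + 16) and 1 among probe sets averaging at least 64. Between the diets in WT livers 0 were higher and 0 lower with median scaling (11 and 2 at an unadjusted p under 0.05) and with hybridization-control centring (5 and 3), 2 were higher with all probe sets averaged, 0 higher with the replicate block (6), 0 higher and 1 lower with the compared groups alone (9 higher unadjusted), and 1 lower without suffixed probe sets. Hybridization-control centring left 1 member lower between the diets in KO and 1 for the interaction. Edem1 turned to -0.23 between the genotypes on the VLF diet with all probe sets averaged (adjusted p = 0.0144), Xbp1 to -0.20 between the diets in KO without suffixed probe sets (0.0424) and Erp44 to 0.35 between the genotypes on the VLF diet with hybridization-control centring (0.00152); the cause was not tested. Probe sets without these suffixes were lacking for Hspa5, Hsp90b1, P4hb, Calr and Derl3, so their values could not be had there.

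With the replicate block, 22 members were higher and 2 lower between KO and WT on the VLF diet. Pdia4, Atf6 and Ern1 lost their calls there (adjusted p = 0.0622, 0.0515 and 0.084), as did Pdia4 between the diets in KO (0.0752) and Derl2 in WT (0.066), and the block ended no other call. The labels do not say that a number marks a shared batch.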

Other observations

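Outside the 33 members, the diet effect was also unequal between the genotypes in several groups of ER genes. In translocation, signal peptidase and glycosylation, 16 of 24 genes had a called interaction with a more positive diet effect in KO livers and 0 the opposite, where 13.6% of all measurable genes were called each way, with a median of 0.45 against -0.0044 over all measurable genes; 20 of the 24 had an unadjusted p under 0.05 in limma. In KO livers 19 of these 24 were higher on the VLF diet than on chow and 2 lower. The shares of all measurable genes called in that comparison were 19.2% and 19.8%. In WT livers 1 was higher and 0 lower (9 at an unadjusted p under 0.05 in limma). There the shares of all measurable genes were only 0.883% and 0.877%. Of 11 genes of the PERK and ATF4 arm, 7 had a positive interaction and 0 a negative one (9 at an unadjusted p under 0.05), with a median of 1.26. Genes of vesicle traffic between ER and Golgi had 2 positive and 3 negative interactions among 19, near the 13.6% of all measurable genes called each way. Macrophage markers had a positive interaction for 9 of 10, so the same livers that held more of the ER messages also held more of these; their part in the ER values was not tested.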
